A study of Mus musculus with 26 samples.

Results

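Smooth-muscle-type contractile genes and the matricellular gene Thbs1 were followed in mouse embryonic stem cells (mESCs) that lack the transcriptional regulator Prdm14 or its co-repressor Mtgr1. The genes are 3 muscle actins (Acta1, Acta2 and Actg2), transgelin (Tagln), the calponins Cnn1 and Cnn2, the myosin regulatory light chain Myl9, the tropomyosins Tpm1 and Tpm2, and thrombospondin 1 (Thbs1). They were picked by name, 10 of the 24015 genes with RNA-seq values, and their high levels in both knockouts relative to wild-type (wt) cells and to the rescued lines were known when they were picked. Those 4 comparisons are therefore given as a description, without a test.

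The study placed Prdm14 and Mtgr1 (encoded by Cbfa2t2) in a single complex and asked by RNA-seq what the loss of either protein changes. All 15 libraries came from a Stella:GFP reporter mESC line that was kept in 2i+LIF, a medium with the MEK inhibitor PD0325901, the GSK3β inhibitor CHIR99021 and leukemia inhibitory factor (LIF). The wt cells were sampled in 2i+LIF (2 libraries) or after 5 days in serum+LIF without feeder cells (1 library), and the other cells after 5 days in serum+LIF. Prdm14-/- libraries came from the CRISPR-Cas9 clones G6 and F10, cut in exon 2 of Prdm14, and Mtgr1-/- libraries from the clones A3, C1 and C3, cut in exon 3 of Mtgr1. The rescue lines carried a FLAG- and HA-tagged (FH) cDNA in the same clones: FH-Prdm14 (2 libraries) and its point mutant E294K, altered where Prdm14 contacts Mtgr1 (2 libraries), in Prdm14-/- cells, and FH-Mtgr1 (3 libraries) in Mtgr1-/- cells. Every line other than wt thus derives from a single knockout clone, and differences between clones cannot be told apart from differences between replicates. The wt serum+LIF condition has no replicate, so that its comparisons take their spread from the other conditions.

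The reads on genes came to between 10668572 and 21218414 per library (median 13793727). Prdm14 stood at 1.96 and 3.60 RPKM (reads normalized to gene length and library size) in the Prdm14-/- libraries and at 2.77 RPKM in wt serum+LIF, so that its transcript did not separate knockout from wt cells. The rescue lines expressed far more Prdm14 than wt serum+LIF cells did, 116 and 79.8 RPKM in FH-Prdm14 and 89.9 and 105 RPKM in E294K. Cbfa2t2 was at 40.7 RPKM in wt serum+LIF, at 18.0 to 19.9 RPKM in Mtgr1-/- cells, at 25.5 to 28.0 RPKM in FH-Mtgr1 cells and at 16.6 and 16.8 RPKM in Prdm14-/- cells.

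The contractile apparatus of smooth muscle is built from actin filaments of muscle-type isoforms, tropomyosins that run along them, calponin and transgelin that bind them, and myosin whose light chain is phosphorylated to start contraction. Many of these genes are turned on by serum response factor (SRF), which binds a DNA element called the CArG box and is switched on by myocardin-related transcription factors (MRTFs) that leave the cytoplasm when free actin monomer runs low. Thrombospondin 1 is a secreted matrix glycoprotein that binds CD47 and integrins and can activate latent TGF-beta. In cultured cells, several of these genes also mark spreading, tension and early differentiation rather than smooth muscle itself.

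The name smooth-muscle-type refers here to the genes and not to a cell type. Of 10 markers of differentiated smooth muscle, 4 were under 1 RPKM in every library: the smooth muscle myosin heavy chain Myh11 reached at most 0.235 RPKM, Kcnmb1 at most 0.297 RPKM, Pln at most 0.0837 RPKM and the coactivator myocardin (Myocd) at most 0.414 RPKM. The other markers reached 1 RPKM in some library, but 7 of the 10 were under 1 RPKM in wt serum+LIF. Smtn, a cytoskeletal protein, was at 26.7 RPKM in wt serum+LIF and 50.4 RPKM at its highest. Of 12 cardiac and skeletal muscle markers 4 were under 1 RPKM in every library (Myod1, Myog, Ckm and Ttn), and Tnnt1 reached 44.6 RPKM. Of 10 fibroblast markers 4 were under 1 RPKM in every library (Dcn, Lum, Postn and Col3a1), and Thy1 reached 24.6 RPKM. Sums of these lists in the knockout, FH-Prdm14, FH-Mtgr1 and wt serum+LIF cells are given with the other marker lists at the end.

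Promoter sequences show which of the genes carry the SRF element close to their start. RefSeq promoters (GRCm38.p6, 250 bases before and 50 after the start) were matched for 7 of the 10 genes, and were not matched for Actg2, Tagln and Thbs1. A CArG box, searched on both strands, was present without a mismatch in 3 of the 7 (Acta1, Cnn2 and Myl9), while 1.63% of all 32851 promoters of this length contained it. With 1 mismatch allowed, 5 of the 7 held a match (Acta2 and Tpm1 in addition), against 21.1% of all promoters. The contractile genes were picked as SRF-dependent genes, so that both comparisons with all promoters are not independent of the choice. The 250 bases upstream of the start are shown for the 3 genes with the box, and for Acta2 as the muscle actin without an exact one. They are written 5′ to 3′ on the strand of the gene in lower case, with the box in capitals and its first base numbered from the start of the gene.
Acta1, chr8:123894776-123895025, minus strand, box starting at -73: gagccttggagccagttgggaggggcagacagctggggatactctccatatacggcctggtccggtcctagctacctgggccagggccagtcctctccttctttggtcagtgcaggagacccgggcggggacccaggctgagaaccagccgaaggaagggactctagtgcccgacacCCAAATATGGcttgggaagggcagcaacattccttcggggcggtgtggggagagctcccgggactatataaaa
Cnn2, chr10:79988350-79988599, plus strand, box starting at -56: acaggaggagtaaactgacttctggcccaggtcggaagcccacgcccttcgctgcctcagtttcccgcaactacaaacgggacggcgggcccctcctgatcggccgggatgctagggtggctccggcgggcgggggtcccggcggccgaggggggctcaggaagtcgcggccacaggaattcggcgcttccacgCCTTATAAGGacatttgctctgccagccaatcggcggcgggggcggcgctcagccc
Myl9, chr2:156775214-156775463, plus strand, box starting at -161: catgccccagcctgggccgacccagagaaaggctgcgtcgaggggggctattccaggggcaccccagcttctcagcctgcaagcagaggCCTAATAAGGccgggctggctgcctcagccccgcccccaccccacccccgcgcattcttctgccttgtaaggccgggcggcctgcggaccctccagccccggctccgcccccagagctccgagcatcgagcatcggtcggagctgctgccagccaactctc
Acta2, chr19:34255374-34255623, minus strand, no exact box: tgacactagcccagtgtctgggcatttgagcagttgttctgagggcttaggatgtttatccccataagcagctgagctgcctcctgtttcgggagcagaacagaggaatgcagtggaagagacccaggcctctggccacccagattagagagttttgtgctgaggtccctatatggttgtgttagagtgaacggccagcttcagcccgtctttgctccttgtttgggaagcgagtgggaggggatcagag
A match is a stretch of letters and does not show that SRF binds there. ChIP-seq samples of the series were not used here.

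Of the 10 genes, Acta1 had the largest fold difference between knockout and wt cells. Acta1 (skeletal muscle alpha-actin, chromosome 8, 126415669 to 126418651 on mm9) was at 95.9 and 117 RPKM in the Prdm14-/- clones G6 and F10 and at 36.0, 36.1 and 62.7 RPKM in the Mtgr1-/- clones A3, C1 and C3. It was at 0.241 RPKM (6 reads) in wt serum+LIF, at 1.43 and 0 RPKM in wt 2i+LIF, at 3.22 and 1.45 RPKM in FH-Prdm14, at 3.06 and 4.12 RPKM in E294K and at 1.94, 2.82 and 0.950 RPKM in FH-Mtgr1. The knockout libraries thus lay above all others, and the Prdm14-/- libraries above the Mtgr1-/- ones, whereas the other conditions followed each other with overlapping ranges.

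Acta2 (smooth muscle alpha-actin, chromosome 19, 34315580 to 34329826) showed the same order at a lower level. It was at 28.5 and 27.7 RPKM in Prdm14-/- cells and at 6.46, 7.36 and 22.5 RPKM in Mtgr1-/- cells, in which clone C3 lay closer to the Prdm14-/- clones than to A3 and C1. In the remaining 10 libraries Acta2 ranged from 0.0911 to 2.22 RPKM. Actg2, the smooth muscle gamma-actin of the gut, did not follow: it was at 0 reads in wt serum+LIF, in wt 2i+LIF and in both Prdm14-/- libraries, and at 0.126 to 0.336 RPKM in Mtgr1-/- cells. A count of 0 in the Prdm14-/- libraries allows up to 3 reads, or 0.197 and 0.178 RPKM for this gene. Actg2 missed the filter on low values, which asks for 1 RPKM or more in 2 or more libraries, and which the other 9 genes passed, also without the knockout libraries. With no filter, limma called it higher in Mtgr1-/- than in Prdm14-/- cells, on no more than 6 reads in any library.

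Even at their highest, the muscle actins were a small part of the actin mRNA. Acta1, Acta2, Actg2 and the cardiac actin Actc1 together made up 3.95% and 5.41% of the summed RPKM of the 6 actin genes in Prdm14-/- cells and 0.811% to 1.66% in Mtgr1-/- cells. The share was 0.0220% in wt serum+LIF and 0.0938% to 0.457% in the rescue and E294K lines. The cytoplasmic actins Actb and Actg1 summed to 2485 RPKM in wt serum+LIF, 2642 and 3098 RPKM in Prdm14-/- cells and 5145 to 5321 RPKM in Mtgr1-/- cells. Stretches of 51 bases that occur identically in another gene's transcript covered 1.93% of Acta1 (shared with Actb and Actg1) and 0.347% of Acta2. In wt serum+LIF the cytoplasmic actins were at 2485 RPKM and Acta1 at 0.241 RPKM. The part of reads assigned to the wrong actin was not tested.

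**Figure D1:**
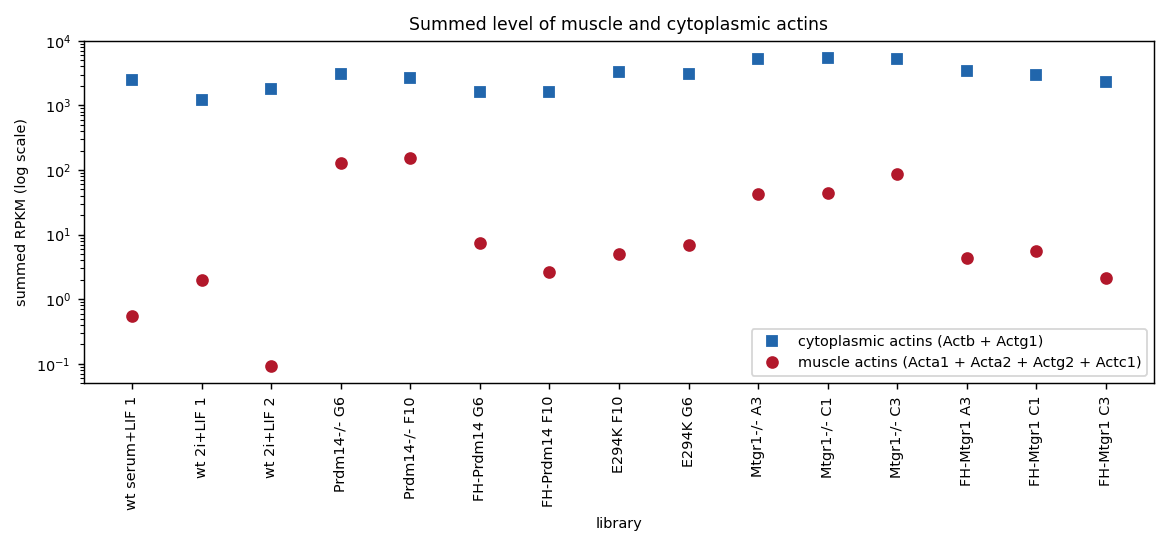
Summed RPKM (log axis) of the muscle actins (circles; Acta1, Acta2, Actg2 and Actc1) and the cytoplasmic actins (squares; Actb and Actg1) in each of the 15 libraries, named by condition and clone or replicate. The muscle actins reach 127 and 151 RPKM in Prdm14-/- and 43.1 to 86.9 RPKM in Mtgr1-/- libraries and stay at or below 7.36 RPKM elsewhere, while the cytoplasmic actins stay at or above 1210.5 RPKM in all libraries.

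Of the proteins that bind actin, Tagln had the largest fold difference. Tagln (transgelin, or SM22-alpha, an actin-bundling protein; chromosome 9, 45737711 to 45744141) was at 144 and 201 RPKM in Prdm14-/- and at 135, 139 and 215 RPKM in Mtgr1-/- cells. It was at 2.74 RPKM in wt serum+LIF, at 4.49 and 2.66 RPKM in wt 2i+LIF and at 8.54 and 5.32 RPKM in FH-Prdm14. E294K cells, at 26.0 and 20.9 RPKM, and FH-Mtgr1 cells, at 15.7, 19.3 and 11.2 RPKM, took places in between that overlapped with no other condition. The knockouts overlapped with each other. Tagln overlaps the gene Pcsk7 on the genome, and 0.977% of its 51-base stretches were shared with it.

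The calponins, which bind actin and restrain the myosin ATPase, differed in their base level. Cnn2 (chromosome 10, 79451329 to 79458807), the form found outside muscle as well, was expressed throughout: at 58.9 RPKM in wt serum+LIF, 234 and 208 RPKM in Prdm14-/- cells and 148, 149 and 229 RPKM in Mtgr1-/- cells. In the FH-Prdm14, E294K and FH-Mtgr1 libraries Cnn2 ranged from 61.1 to 73.1 RPKM, close to the wt value, and in wt 2i+LIF it was at 22.2 and 17.8 RPKM. Cnn1 (chromosome 9, 21903725 to 21914074), the form typical of smooth muscle, was lower and less separated. Cnn1 was at 8.55 and 17.2 RPKM in Prdm14-/- cells, at 13.7, 14.3 and 24.3 RPKM in Mtgr1-/- cells and at 11.3, 12.1 and 8.54 RPKM in FH-Mtgr1 cells, and was at 5.99 RPKM in wt serum+LIF. The lowest Cnn1 values were those of wt 2i+LIF, 0.613 and 0.275 RPKM.

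Myl9, the regulatory light chain of smooth muscle and non-muscle myosin II (chromosome 2, 156601156 to 156607394), was highest in the knockouts with a small gap to FH-Mtgr1. It was at 27.2 and 39.3 RPKM in Prdm14-/- and at 27.2, 29.3 and 26.7 RPKM in Mtgr1-/- cells, and FH-Mtgr1 cells, at 22.2, 25.4 and 12.9 RPKM, came close to the Mtgr1-/- cells from which they were made. Myl9 was at 14.7 and 13.0 RPKM in E294K, at 11.0 and 7.15 RPKM in FH-Prdm14, at 6.40 RPKM in wt serum+LIF and at 1.64 and 1.44 RPKM in wt 2i+LIF.

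The tropomyosins, which run along the actin filament and set the access of myosin to it, differed in size of change. Tpm1 (chromosome 9, 66870397 to 66897213) was at 340 and 271 RPKM in Prdm14-/- and at 216, 179 and 250 RPKM in Mtgr1-/- cells, against 30.2 RPKM in wt serum+LIF. The other libraries held 23.9 to 64.1 RPKM of Tpm1. Tpm2 (chromosome 4, 43527583 to 43536637) was at 25.2 and 18.7 RPKM in Prdm14-/- and at 21.5, 21.7 and 32.5 RPKM in Mtgr1-/- cells, against 7.80 RPKM in wt serum+LIF and 12.3 to 16.4 RPKM in FH-Mtgr1.

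Thbs1 (chromosome 2, 117937612 to 117952869), which codes for no contractile protein, followed the actins. It was at 72.3 and 53.5 RPKM in Prdm14-/- and at 26.4, 23.3 and 52.3 RPKM in Mtgr1-/- cells, against 0.934 RPKM in wt serum+LIF. Thbs1 was at 1.10 and 0.0404 RPKM in wt 2i+LIF, at 1.65 and 0.858 RPKM in FH-Prdm14, at 4.29 and 3.45 RPKM in E294K and at 3.27, 4.44 and 3.47 RPKM in FH-Mtgr1. The Prdm14-/- libraries lay above the Mtgr1-/- ones, and E294K and FH-Mtgr1 overlapped.

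**Figure D2:**
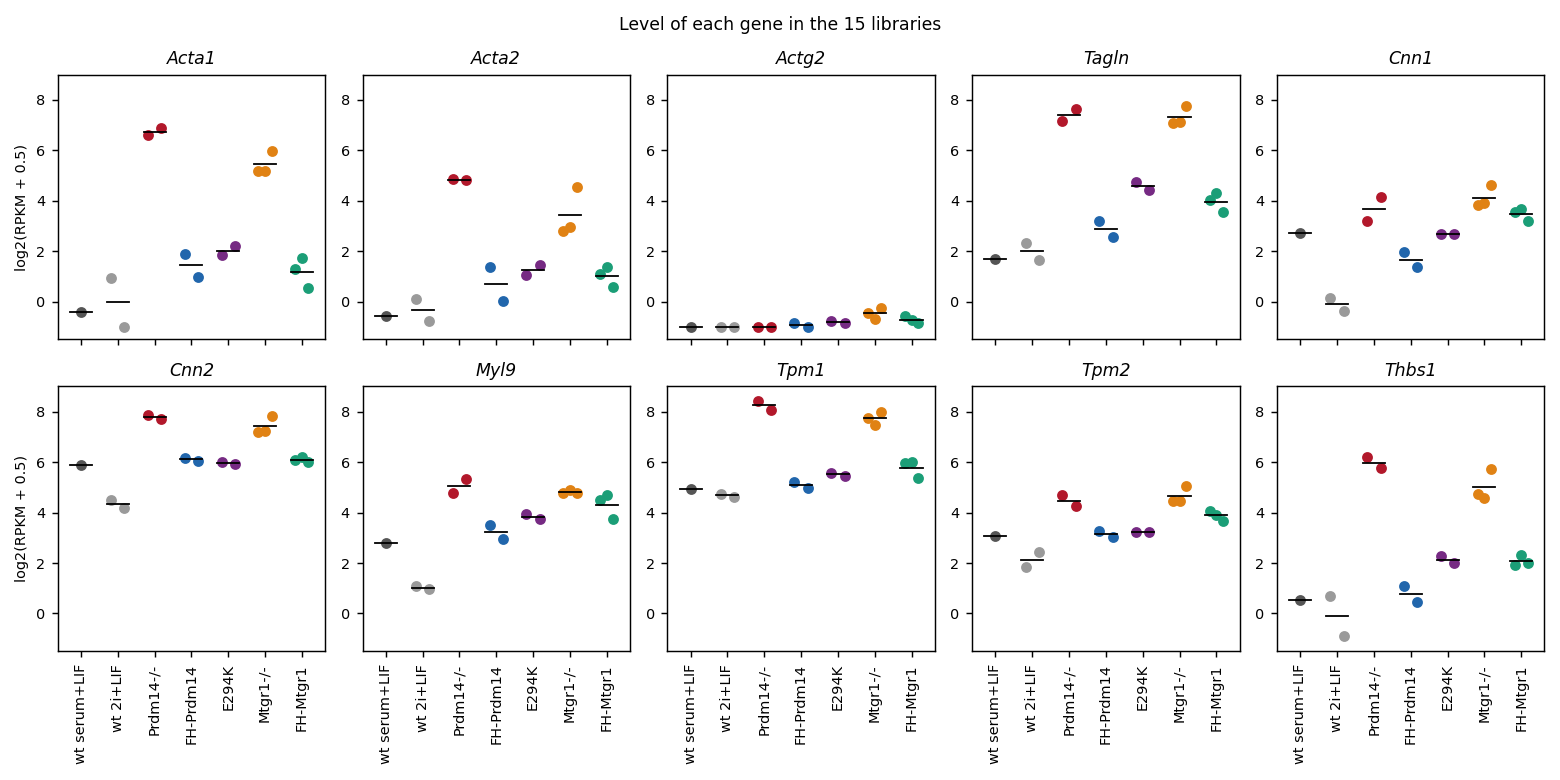
Level of each of the 10 genes on the log2(RPKM + 0.5) scale in the 15 libraries; each point is a library, placed by condition, and the bar is the mean of the condition. For 8 genes every Prdm14-/- and Mtgr1-/- point lies above all others. High levels in these cells were known when the genes were picked, and the share of all genes separated in this way was not computed. The Cnn1 points of these cells mix with those of FH-Mtgr1, and Actg2 stays near the floor of the scale, at no more than 0.336 RPKM.

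The comparisons that the choice of genes used are given on the log2(RPKM + 0.5) scale. Relative to wt serum+LIF, Prdm14-/- cells differed by 7.17 for Acta1, 5.72 for Tagln, 5.45 for Thbs1, 5.41 for Acta2, 3.31 for Tpm1, 2.27 for Myl9, 1.90 for Cnn2, 1.42 for Tpm2 and 0.96 for Cnn1. Mtgr1-/- cells differed from the same wt library by 5.89 for Acta1, 5.62 for Tagln, 4.50 for Thbs1, 4.01 for Acta2, 2.80 for Tpm1, 2.03 for Myl9, 1.61 for Tpm2, 1.54 for Cnn2 and 1.42 for Cnn1. These comparisons share the wt library. The 9 genes lay above with no overlap in Prdm14-/- against wt cells (40.5% of all 13477 genes tested did so), in Mtgr1-/- against wt cells (34.3%), in Prdm14-/- against FH-Prdm14 cells (29.2%) and in Mtgr1-/- against FH-Mtgr1 cells (31.1%), which is how they were picked. Their median difference was 3.15 for Prdm14-/- against FH-Prdm14 and 1.95 for Mtgr1-/- against FH-Mtgr1, beside -0.09 and -0.01 for all genes. Since cells were not separated, a larger number of cells that express these genes and more mRNA per cell cannot be told apart.

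Whether the E294K mutant, which is impaired in binding Mtgr1, does what FH-Prdm14 does was tested with limma over all genes. E294K cells held more Tagln than FH-Prdm14 cells, by 1.71 ± 0.32 (log2 difference ± SE, 2 against 2 libraries; Benjamini-Hochberg adjusted p = 0.00355 from limma). Tagln was the only one of the 9 genes called, when 6.35% of all genes were called higher and 13.2% lower. Thbs1 (1.35 ± 0.46, limma adjusted p = 0.0591) and Cnn1 (1.02 ± 0.35, limma adjusted p = 0.0606) missed the threshold, as did Myl9 (0.61 ± 0.29) and Tpm1 (0.42 ± 0.22). For these 5 genes both E294K libraries lay above both FH-Prdm14 libraries, as they did for 35.2% of all genes. Acta1 (0.59 ± 0.55), Acta2 (0.55 ± 0.55) and Tpm2 (0.07 ± 0.25) overlapped, and Cnn2 differed by -0.14 ± 0.20. The FH-Prdm14 libraries were the low side of a comparison that chose the genes, so that this test is not fully independent of the choice.

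The number of calls depended on which libraries were in the fit. With only these 4 libraries, 4 of the 9 genes were called higher: Tagln (limma adjusted p = 0.00392), Thbs1 (0.00977), Cnn1 (0.0138) and Tpm1 (0.0223). Calls over all genes rose as well, to 22.3% higher and 31.2% lower. The E294K and FH-Prdm14 lines were made in the same 2 knockout clones, and a replicate block for these clones in the fit of the 4 libraries added Acta1 (limma adjusted p = 0.0478), when 22.6% of all genes were called higher and 31.5% lower. Over 11 alternatives, the limma adjusted p of Tagln stayed between 0.00251 and 0.0456, while that of Thbs1 ranged from 0.00977 to 0.291 and that of Cnn1 from 0.0112 to 0.319.

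Against the knockout cells from which they were made, the E294K cells held less of all 9 genes tested (limma, 2 against 2 libraries), when 17.8% of all genes were called lower and 15.1% higher. The knockout libraries were the high side of comparisons that chose the genes, so that this count is not independent evidence of the direction. Log2 differences were -4.71 ± 0.55 for Acta1, -3.85 ± 0.46 for Thbs1, -3.58 ± 0.55 for Acta2, -2.84 ± 0.32 for Tagln and -2.74 ± 0.22 for Tpm1. They were smaller for Cnn2 (-1.82 ± 0.20), Tpm2 (-1.24 ± 0.25), Myl9 (-1.21 ± 0.29) and Cnn1 (-0.996 ± 0.351), and limma adjusted p-values were 0.0458 for Cnn1 and at most 0.00839 for the others. The call for Cnn1 was lost under 6 of 11 alternatives, with a limma adjusted p of up to 0.317 without the Prdm14-/- clone F10. That for Myl9 was lost under 2, without E294K clone G6 or without Prdm14-/- clone F10 (limma adjusted p of up to 0.0637), and that for Tpm2 without Prdm14-/- clone G6 (0.0528). E294K lines held 89.9 and 105 RPKM of Prdm14 mRNA against 1.96 and 3.60 RPKM in the knockout, and the part of that excess in the lower levels was not tested.

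**Figure D3:**
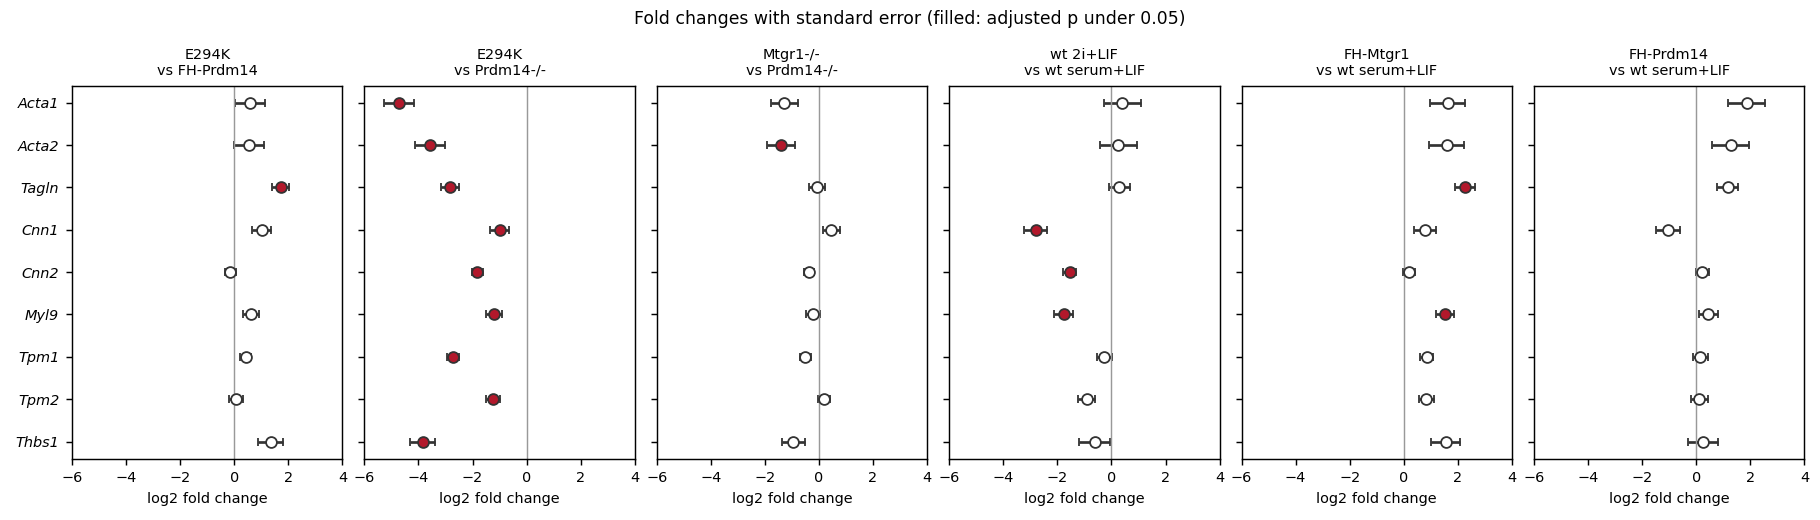
Log2 fold change of RPKM + 0.5 with its standard error (limma) for the 9 genes past the filter in 6 comparisons, first-named condition relative to the second; filled points have an adjusted p under 0.05. In E294K against FH-Prdm14 only Tagln (1.71) is filled, in E294K against Prdm14-/- all 9 are, and in Mtgr1-/- against Prdm14-/- only Acta2 (-1.41) is.

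The knockouts were then compared with each other, which asks whether loss of Mtgr1 moves these genes as far as loss of Prdm14. Acta2 was lower in Mtgr1-/- than in Prdm14-/- cells by a log2 difference of -1.41 ± 0.50 (3 against 2 libraries, limma adjusted p = 0.0460), the only call among the 9 genes, when 21.1% of all genes were called lower and 14.4% higher. Acta1 (-1.28 ± 0.51, limma adjusted p = 0.0672), Tpm1 (-0.51 ± 0.20, 0.0651) and Thbs1 (-0.95 ± 0.42, 0.0970) were not called, although all Mtgr1-/- libraries lay below all Prdm14-/- libraries for these genes and for Acta2 (32.1% of all genes did). The Mtgr1-/- and Prdm14-/- libraries overlapped for Tagln (-0.09 ± 0.30), Cnn1 (0.45 ± 0.32), Cnn2 (-0.36 ± 0.18), Myl9 (-0.24 ± 0.26) and Tpm2 (0.18 ± 0.23). Both knockouts were the high side of comparisons that chose the genes, so that this test is not independent of the choice.

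The Mtgr1-/- clone C3 stood apart in this comparison. It held 22.5 RPKM of Acta2 and 52.3 RPKM of Thbs1, against at most 7.36 and 26.4 RPKM in clones A3 and C1. Without C3, 5 genes were called lower in Mtgr1-/- cells (Acta1, Acta2, Cnn2, Tpm1 and Thbs1), when 22.6% of all genes were called lower and 16.8% higher. Without A3 or without C1 none were, when 16.2% and 15.9% of all genes were called lower. The limma adjusted p of Acta2 ranged from 0.0038 to 0.165 over 11 alternatives and stayed under the threshold in 3 of them.

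The medium alone separated part of the set in wt cells. Cells in 2i+LIF held less Cnn1 than cells in serum+LIF, by a log2 difference of -2.81 ± 0.43 (2 libraries against 1, limma adjusted p = 0.00108), less Cnn2 (-1.54 ± 0.24, 0.00125) and less Myl9 (-1.76 ± 0.35, 0.00470). These were 3 of the 9 genes, when 13.6% of all genes were called lower and 9.28% higher. Tpm2 (-0.91 ± 0.31, limma adjusted p = 0.0505), Thbs1 (-0.63 ± 0.57) and Tpm1 (-0.26 ± 0.27) did not pass. Tagln (0.29 ± 0.40), Acta1 (0.41 ± 0.68) and Acta2 (0.25 ± 0.67) did not pass either and were at no more than 4.49 RPKM in these libraries. With only these 3 libraries in the fit, the 3 calls were lost, and limma called none of the 13477 genes tested. The wt serum+LIF library was the low side of comparisons that chose the genes, so that this test is not fully independent of the choice.

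FH-Mtgr1 cells held more of 2 of the genes than wt cells did. Tagln was higher in FH-Mtgr1 than in wt serum+LIF cells, by 2.26 ± 0.37 (3 libraries against 1, limma adjusted p = 0.0176), and so was Myl9, by 1.53 ± 0.33 (0.0372), when 1.03% of all genes were called higher and 1.71% lower. All 9 genes lay above the wt library in all 3 FH-Mtgr1 libraries, as 24.6% of all genes did, with a median log2 difference of 1.53 beside -0.11 for all genes. Tpm1 (0.85 ± 0.25, limma adjusted p = 0.0837), Thbs1 (1.55 ± 0.53, 0.122) and Acta1 (1.62 ± 0.64, 0.170) did not pass. The calls rest on the single wt library and on clone A3, without which neither passed, and the call for Myl9 was also lost without clone C1. Both conditions were the low side of comparisons that chose the genes, so that this test is not independent of the choice.

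In FH-Prdm14 against wt serum+LIF cells, limma called 0 of the 9 genes (6.92% of all genes were called higher and 5.60% lower). At an unadjusted p under 0.05 limma found 3 of the 9, and voom on the reads computed back from the RPKM also called 0. The largest log2 differences were 1.86 ± 0.68 for Acta1, 1.28 ± 0.67 for Acta2 and 1.16 ± 0.40 for Tagln, and Cnn1 differed by -1.05 ± 0.43. Here too, both conditions were the low side of comparisons that chose the genes.

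The genes of the same families and the lists that follow were chosen with earlier results of these data known. Among the genes of the same families that were not in the set, 14 of 15 passed the filter. In Prdm14-/- against FH-Prdm14 cells 6 rose and 1 fell, when 11.4% of all genes were called higher and 13.8% lower: Tpm4 by 1.44, Actc1 by 1.48, Actg1 by 1.06, Myl12a by 0.99, Tagln2 by 0.69 and Myl6 by 0.56 on the log2 scale, while Tagln3 fell by 1.61. Whichever clone was left out, no more rose, the call for Tagln3 was lost, and fewer of all genes were called in both directions. The replicate block gave 10 risen, beside 17.3% of all genes called higher. In Mtgr1-/- against FH-Mtgr1 cells 10 rose, when 26.2% of all genes were called higher and 26.1% lower. They included the non-muscle tropomyosins Tpm3 (1.17) and Tpm4 (1.18), the thrombospondins Thbs3 (1.47) and Thbs4 (0.78), Tagln2 (0.91) and the cytoplasmic actins Actb (0.92) and Actg1 (0.89). Thbs2 missed the filter, at no more than 0.673 RPKM, and Comp did not pass the test in either comparison (0.65 and -0.02). The calponin Cnn3 was at 203 RPKM in wt serum+LIF, 243 and 287 RPKM in Prdm14-/- and 160 to 203 RPKM in Mtgr1-/- cells, and did not pass against either rescue line (-0.25 and 0.23).

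The cytoplasmic actins passed the test where the muscle actins did not in the E294K lines, a difference between genes that was not tested itself. Actb (0.94, limma adjusted p = 0.0165) and Actg1 (1.02, limma adjusted p = 0.00179) were higher in E294K than in FH-Prdm14 cells, with 1774 and 1715 RPKM of Actb against 915 and 905 RPKM, while Acta1 and Acta2 did not pass. Tpm3 (0.55) and Myl12a (0.73) also rose, and Cnn3 (-0.90) and Tagln2 (-0.53) fell. These were 4 risen and 2 fallen of 14, beside 6.35% of all genes called higher and 13.2% lower. Without single clones fewer were called in both directions, as over all genes. Between the knockouts the cytoplasmic actins went the other way from Acta2, with Actb higher in Mtgr1-/- than in Prdm14-/- cells by 0.84 (limma adjusted p = 0.0104) and Actg1 by 0.90 (0.00104), and Actc1 lower by a log2 difference of -1.99 (0.00297).

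Of 7 genes that code for SRF and its cofactors, 6 passed the filter on low values. Limma called 1 of the 6 higher in Prdm14-/- against FH-Prdm14 cells and 2 in Mtgr1-/- against FH-Mtgr1 cells, beside 11.4% and 26.2% of all genes. Srf was at 25.2 RPKM in wt serum+LIF, at 47.3 and 39.8 RPKM in Prdm14-/- cells, at 26.0 and 23.3 RPKM in FH-Prdm14, at 34.4, 37.3 and 57.6 RPKM in Mtgr1-/- and at 30.9, 31.9 and 28.4 RPKM in FH-Mtgr1. Srf rose in Prdm14-/- against FH-Prdm14 cells (0.80, limma adjusted p = 0.0463), a call that was lost whichever clone was left out, and did not pass in Mtgr1-/- against FH-Mtgr1 cells (0.46, 0.0973). Mkl1, which codes for the coactivator MRTF-A, rose in Mtgr1-/- cells against their FH-Mtgr1 rescue (1.29, limma adjusted p = 0.000364), as did the ternary complex factor Elk3 (0.99, 0.00294). Neither passed in Prdm14-/- against FH-Prdm14 cells (0.08 and -0.18), and Mkl2, Elk1 and Elk4 passed in neither comparison. In E294K against FH-Prdm14 cells limma called 0 of the 6 genes, with 0 at an unadjusted p under 0.05 and 0 called by voom.

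A list of 22 other targets of MRTF and SRF, of which 21 passed the filter, mostly rose in the knockouts. It was chosen with earlier results of these data known, and both comparisons that follow also chose the 10 genes. The counts are therefore not independent evidence of the direction. In Prdm14-/- against FH-Prdm14 cells 13 rose and 1 fell, beside 11.4% of all genes called higher and 13.8% lower. The highest were Lpp (2.91 ± 0.19), a protein of focal adhesions, and Cyr61 (2.91 ± 0.34), a matricellular protein that is also a target of YAP; Lima1, an actin-binding LIM protein, fell by 1.14 on the log2 scale, and Filip1l (-0.51 ± 0.21) did not pass. In Mtgr1-/- against FH-Mtgr1 cells 18 rose and 0 fell, beside 26.2% and 26.1% of all genes, led by the LIM proteins Fhl2 (2.70 ± 0.26) and Tgfb1i1 (2.52 ± 0.28), and neither Lima1 (-0.26 ± 0.13) nor Filip1l (-0.04 ± 0.17) passed. Median log2 differences of the list were 1.09 and 1.28. In the first comparison the number risen fell or grew with the clone left out, while fewer of all genes were called higher. In the second it was 17 to 18 without single clones, beside 22.5% to 24.2% of all genes. The replicate block gave 15 and 17 risen, beside 17.3% and 24.4% of all genes called higher.

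The same list separated E294K from the knockout rather than from FH-Prdm14. Against Prdm14-/- cells 14 of the 21 were lower in E294K and 2 (Lima1 and Cfl1) were higher, beside 17.8% and 15.1% of all genes, with Cyr61 (-3.33 ± 0.34) and Ctgf (-2.96 ± 0.51) at the low end. Against FH-Prdm14 cells Lpp (2.02 ± 0.19) and the actin-severing cofilin Cfl1 (0.62 ± 0.15) were higher and Lima1 lower, with a median of 0.03 for the list and -0.06 for all genes. With only these 4 libraries in the fit, with or without the replicate block, 7 were called higher and 4 lower, beside 22.3% and 31.2% of all genes without the block. Whichever clone was left out, fewer were called in both directions than with all clones, as over all genes. Lpp, like Tagln, took a level in between, at 4.82 and 4.72 RPKM in E294K against 0.876 and 0.731 RPKM in FH-Prdm14 and 9.01 and 9.56 RPKM in Prdm14-/- cells.

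**Figure D4:**
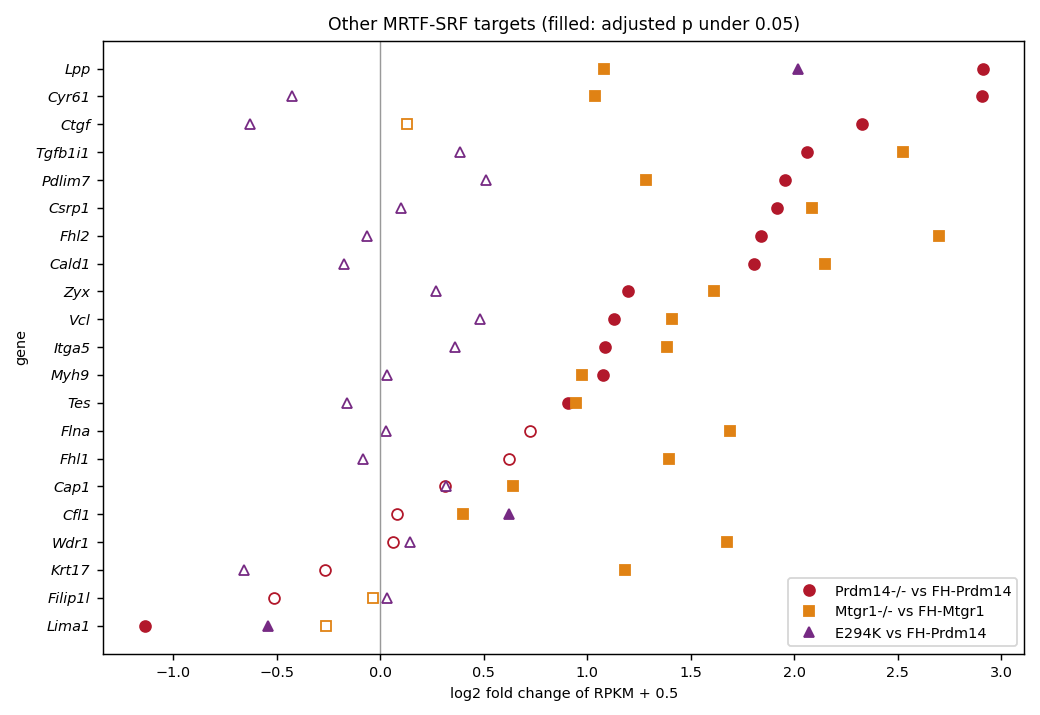
Log2 fold change of RPKM + 0.5 for 21 other MRTF-SRF targets in Prdm14-/- against FH-Prdm14 (circles), Mtgr1-/- against FH-Mtgr1 (squares) and E294K against FH-Prdm14 (triangles); filled symbols have a limma adjusted p under 0.05, and genes are ordered by the circles. Most circles and squares lie to the right of 0 (13 and 18 genes rose), while the triangles centre near 0 with a median of 0.03.

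SRF targets of the other branch, which ternary complex factors control in answer to growth factor signalling, were mixed. Of 5 genes past the filter, Junb rose in both knockouts against their rescue lines (0.77 and 1.53) and Egr1 fell by 1.38 and 0.66 on the log2 scale, while Mcl1 fell in Mtgr1-/- cells by 0.87 and did not pass in Prdm14-/- cells (-0.04). This was 1 risen and 1 fallen in Prdm14-/- cells, beside 11.4% and 13.8% of all genes. In Mtgr1-/- cells it was 1 and 2, beside 26.2% and 26.1%. Each of the Prdm14-/- calls was lost when some single clone was left out. Egr1 was at 27.7 RPKM in wt serum+LIF, at 5.14 and 7.07 RPKM in Prdm14-/- and at 6.06 to 9.40 RPKM in Mtgr1-/- cells.

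Targets of YAP and TEAD, which share Cyr61 and Ctgf with the MRTF-SRF list and answer to the same changes of the cytoskeleton, rose in Prdm14-/- cells. All 8 tested were higher than in FH-Prdm14 cells, beside 11.4% of all genes, and fewer without single clones, as over all genes. They were led by Ankrd1 (3.12 ± 0.25) and Cyr61 (2.91 ± 0.34), with Ajuba (0.96 ± 0.31) and Crim1 (0.94 ± 0.29) at the low end. In Mtgr1-/- against FH-Mtgr1 cells 4 of the 8 rose, beside 26.2% of all genes, led by Axl (1.90 ± 0.31) and Ankrd1 (1.38 ± 0.20), and Ctgf (0.13 ± 0.42) and Amotl2 (0.34 ± 0.29) did not pass. In the direct comparison of the knockouts 5 of the 8 were lower in Mtgr1-/- cells, beside 21.1% of all genes. The number fell or grew with the clone left out, as it did over all genes. All 8 were lower in E294K than in Prdm14-/- cells, beside 17.8% of all genes. Against FH-Prdm14 cells limma called 0 of the 8, with 2 at an unadjusted p under 0.05 and 1 called by voom, while the fit to only these 4 libraries with the replicate block called 1 higher and 4 lower, beside 22.6% and 31.5% of all genes.

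Genes that act with Thbs1 were mixed. Of 11 TGF-beta targets, ligands and thrombospondin receptors past the filter, 3 rose and 1 fell in Prdm14-/- against FH-Prdm14 cells, beside 11.4% and 13.8% of all genes. The Mtgr1-/- cells differed from FH-Mtgr1 cells by 7 risen and 1 fallen, beside 26.2% and 26.1% of all genes. In the first comparison no more rose without single clones, when fewer of all genes were called. The replicate block gave 5 risen and 3 fallen there, beside 17.3% and 22.7% of all genes. The ligand Tgfb2 rose in both (1.49 ± 0.33 and 2.41 ± 0.27). Tgfbi, whose name marks it as a TGF-beta-induced gene, was lower in Prdm14-/- than in FH-Prdm14 cells (-2.81 ± 0.23) but rose in Mtgr1-/- cells against their rescue (0.98 ± 0.19). It stood at 5.38 and 6.71 RPKM in FH-Prdm14, 0.660 and 0.657 RPKM in E294K and 0.518 RPKM in wt serum+LIF. The Thbs1 receptor Cd47 rose in Prdm14-/- against FH-Prdm14 cells (1.23 ± 0.34, limma adjusted p = 0.0201) and did not pass in Mtgr1-/- against FH-Mtgr1 cells (-0.32 ± 0.28).

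Some marker lists of other cell types differed between knockout and wt serum+LIF cells, while the fibroblast sums of both knockouts lay on both sides of the wt value. The genes named among the markers were chosen after their values were seen. The summed RPKM of 9 trophoblast markers was 34.5 in wt serum+LIF, 109.8 and 131 in Prdm14-/-, 158 to 175 in Mtgr1-/-, 56.1 and 62.2 in FH-Prdm14, 29.6 and 31.8 in E294K and 27.7 to 35.6 in FH-Mtgr1, with the keratin Krt7 at 87.2 and 67.4 RPKM in Prdm14-/- and 88.1 to 116 RPKM in Mtgr1-/- cells, and 5 of the 9 under 1 RPKM in wt serum+LIF. Early mesoderm markers summed to 39.0 to 41.7 RPKM in Mtgr1-/- cells, of which Hand1, also a trophoblast gene, held 33.7 to 36.1 RPKM, and to 8.41 and 15.5 RPKM in Prdm14-/- and 5.60 RPKM in wt serum+LIF cells. Primitive endoderm markers summed to 303 and 332 RPKM in Prdm14-/- and 285 to 361 RPKM in Mtgr1-/- cells, against 156 RPKM in wt serum+LIF, 288.9 and 293.6 RPKM in wt 2i+LIF, 210 and 219 RPKM in FH-Prdm14, 177 and 202 RPKM in E294K and 179 to 228 RPKM in FH-Mtgr1. Against FH-Mtgr1 cells, Mtgr1-/- cells held more of the basement membrane and matrix genes Col4a1, Col4a2 and Sparc and less of the regulators Gata6 and Gata4 (limma). Over all genes 26.2% were called higher and 26.1% lower, and the median log2 difference of the list was -0.37. The 10 smooth muscle markers summed to 79.2 and 90.1 RPKM in Prdm14-/-, 35.9 to 50.7 RPKM in Mtgr1-/-, 46.9 and 52.1 RPKM in FH-Prdm14, 53.4 to 57.9 RPKM in FH-Mtgr1 and 46.3 RPKM in wt serum+LIF cells. Of the 5 past the filter, Smtn, Lmod1, Des and Synm rose in Prdm14-/- against FH-Prdm14 cells, beside 11.4% of all genes. Fewer of these 4 were called whichever clone was left out. In Mtgr1-/- against FH-Mtgr1 cells Itga8 rose and Des and Synm fell, beside 26.2% and 26.1% of all genes. Fibroblast markers summed to 18.2 and 23.3 RPKM in Prdm14-/-, 14.6 to 30.2 RPKM in Mtgr1-/-, 14.4 and 16.6 RPKM in FH-Prdm14, 25.3 to 31.6 RPKM in FH-Mtgr1 and 20.4 RPKM in wt serum+LIF cells. Cardiac and skeletal muscle markers summed to 28.7 and 57.6 RPKM in Prdm14-/-, 11.1 to 12.3 RPKM in Mtgr1-/-, 27.0 and 28.0 RPKM in FH-Prdm14, 27.7 to 31.8 RPKM in FH-Mtgr1 and 31.1 RPKM in wt serum+LIF cells. Markers of embryonic stem cells were lower, at 895 and 1217 RPKM in Prdm14-/-, 937 to 1046 RPKM in Mtgr1-/- and 1195 to 1233 RPKM in FH-Mtgr1 cells against 1776 RPKM in wt serum+LIF. FH-Prdm14 cells, at 2303 and 2377 RPKM, and E294K cells, at 1931 and 2079 RPKM, lay above wt serum+LIF. Of the 8 markers limma called 7 lower in Prdm14-/- against FH-Prdm14 cells, beside 13.8% of all genes. In Mtgr1-/- against FH-Mtgr1 cells it called 3 lower, beside 26.1%. The part of these cell types in the contractile genes was not tested.

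Across the 15 libraries the 9 genes went up and down together. Pearson correlations of log2(RPKM + 0.5) over the 36 pairs of genes ranged from 0.683 (Acta1 with Cnn1) to 0.981 (Tpm1 with Thbs1), with a median of 0.900. The libraries of a condition or clone are not independent points, and the contrast of knockouts with the rest, by which the genes were picked, makes up much of these values. Of 3759 other genes with a range of at least 2 on this scale, those most like the mean of the set over the 15 libraries were Fosl2 (r = 0.979), a subunit of the AP-1 factor, Ogfr (0.977), the LIM protein Pdlim7 (0.969), the guanine nucleotide exchange factor Trio (0.968) and the focal adhesion adaptor Bcar1 (0.967). Fosl2 averaged 1.19 RPKM in wt serum+LIF, 11.3 RPKM in Prdm14-/- and 9.36 RPKM in Mtgr1-/- cells. Among the genes most like Thbs1 alone were Ogfr (0.981) and Irs2 (0.972).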

How the data were processed

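RNA-seq libraries of mESCs were made from oligo-dT-selected mRNA without strand information and read from a single end, at 51 or 76 bases. For alignment to mm9 the authors used Tophat, for counting on RefSeq models HTSeq and for testing DESeq2, and the submitters' processing notes name mm9, GRCm38 and HTSeq without roles. The authors deposited RPKM values with the gene length used, 1 per gene and library, for 24015 genes. Multiplied by gene length and divided by the smallest step of the library, 100.0% of the values were whole reads (within 0.01), which gave the depth. Counts of a gene have an error of counting beside the spread between clones, so that genes at a few reads, such as Actg2, carry little information. Columns of other samples were not present (0).

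Values were taken as log2(RPKM + 0.5), which understates the change of low genes. The filter left the 13477 genes that reached 1 RPKM in 2 or more libraries. The limma package (3.58.1, under R 4.3.3, eBayes with trend) fitted the mean of each condition to all 15 libraries together, with Benjamini-Hochberg adjustment over all genes tested and a threshold of 0.05. Clones are separate samples per the labels, while nothing says that the wt 2i+LIF libraries came from separate cultures, so that their spread may be technical. Python 3.11.15 with pandas 2.3.3 and numpy 2.4.6 served for the tables. The fit was tested on simulated data with known changes.

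The 10 genes and all lists were chosen with earlier results of these data known. Named were the 10 genes, the family genes and SRF cofactors, the 2 genes with the highest and the 2 with the lowest change in other lists, and the genes most correlated with the set. Alternatives were pseudocounts of 0.1 and 1, no filter, only the compared conditions, median-of-ratios scaling, voom on the reads, a replicate block by parental clone, leaving out single libraries and a CArG box with 1 mismatch. For the other MRTF-SRF targets these were chosen after seeing the data. The pairing by parental clone comes from the labels. Deviations of the same clone from the condition means correlated at 0.299 between Prdm14-/- and FH-Prdm14, 0.0797 between E294K and FH-Prdm14, 0.0405 between E294K and Prdm14-/-, and -0.182 to 0.0633 between Mtgr1-/- and FH-Mtgr1. Positions are those of GENCODE genes on NCBIM37, the assembly also called mm9, and promoters are from RefSeq on GRCm38.p6. ChIP-seq data were left out, and a few genes and 1 gene list are not reported here.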

Additional observations from a re-analysis of the deposited data

Results flagged for a closer look

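Acta2 was flagged because the 2 knockouts differed in a direct test, with a log2 difference of -1.41 ± 0.50 for Mtgr1-/- relative to Prdm14-/- cells (limma adjusted p = 0.0460). All 3 Mtgr1-/- libraries lay below both Prdm14-/- libraries, as they did for 32.1% of all genes. Of all genes, 21.1% were called lower and 14.4% higher. Over 11 alternatives the limma adjusted p ranged from 0.0038 to 0.165, and 3 of them kept it under the threshold. Both knockouts were the high side of comparisons that chose the genes, so that the test is not independent of the choice.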

How the results depend on the processing

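For single genes in the 6 tested comparisons, 461 of 522 alternative values kept their direction and their side of the threshold, 26 lost a call, 19 gained one and 16 changed direction. Of 179 counts and medians, 148 stayed close and 31 moved. The cause of the moves was not tested.

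In E294K against FH-Prdm14, 4 genes were called higher with only these conditions in the fit, 2 with median-of-ratios scaling and 5 with the replicate block by parental clone in the same restricted fit, to which the block added Acta1; it changed no other call among the 9 genes, in this comparison or in E294K against Prdm14-/-. In E294K against FH-Prdm14 these settings called 22.3%, 7.87% and 22.6% of all genes higher. Of the other MRTF-SRF targets, 7 were called higher with only these conditions and 7 with the replicate block, beside 22.3% and 22.6% of all genes. Fewer were called whichever single clone was left out, as over all genes. In 2i+LIF against serum+LIF, the calls were lost with only these conditions, as were those of all other genes. In Mtgr1-/- against Prdm14-/-, 0 genes were called lower with a pseudocount of 0.1, with no filter and with median-of-ratios scaling. Over all genes 21.2%, 14.4% and 19.3% were called lower under these settings. With voom 2 were called lower and with a pseudocount of 1 it was 3, beside 22.4% and 20.8% of all genes. The number fell or grew with the clone left out. With no filter 1 was called higher (Actg2, at no more than 6 reads in any library), beside 10.1% of all genes. In FH-Mtgr1 against wt cells, 1 was called higher with no filter, 0 with only these conditions and 0 to 1 without clone A3 or C1. Each of these alternatives also called fewer of all genes higher. The median for Prdm14-/- against wt cells was 3.32 and 3.29 with pseudocounts of 0.1 and 1, 3.37 with median-of-ratios scaling and 3.14 to 3.47 without single clones. With 1 mismatch allowed, 5 promoters held a CArG box.

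Changes of direction, all of them without a call, came from single libraries, apart from Acta1 in 2i+LIF against serum+LIF, which was at -0.56 with voom. Leaving out single libraries in that comparison gave -0.57 to 1.38 for Acta1, -0.18 to 0.69 for Acta2, -0.037 to 0.62 for Tagln and -1.41 to 0.16 for Thbs1. In E294K against FH-Prdm14 it gave -0.14 to 1.24 for Acta2 and -0.054 to 0.19 for Tpm2. In Mtgr1-/- against Prdm14-/- it gave -0.33 to 0.15 for Tagln, -0.035 to 0.94 for Cnn1, -0.50 to 0.025 for Myl9 and -0.026 to 0.40 for Tpm2, and in FH-Prdm14 against wt cells -0.012 to 0.23 for Tpm2 and -0.078 to 0.58 for Thbs1.

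The single wt serum+LIF library limits every comparison with it, and its counts of 6 reads for Acta1 and 7 for Acta2 limit their fold changes.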
